A study of Homo sapiens with 4 samples.

Results

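The set described here holds 84 genes of Jurkat cells whose RNA was at or close to 0 after treatment with GNE987. They were chosen by measured values of 3 libraries: at least 5 CPM (the count scaled to the library total) in untreated replicate 1 and at most 0.5 CPM in both treated libraries, for genes of any biotype. Among 26733 genes measured, 10513 had at least 5 CPM in untreated replicate 1, and the rule took 0.799% of them after 1 gene, COA7, and 2 GIMAP genes had been set aside. Because these values chose the members, the difference between untreated replicate 1 and the treated libraries is given as a description and not tested. Untreated replicate 2 took no part in the choice, but its levels differed from those of untreated replicate 1, as described below. With 2 untreated libraries it cannot be told which of them is the unusual one.

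Jurkat is an established line from a T-cell acute lymphoblastic leukaemia (T-ALL). One group of 2 libraries came from Jurkat cells given GNE987, with a dose labelled 25 nmol (no volume) and a time of 24 h. The other group of 2 libraries came from Jurkat cells labelled as not treated, also with a time of 24 h, and the labels name no vehicle. Polyadenylated RNA was sequenced to total counts of 16041022 to 18938465 per library, so that 3 counts in a library equal 0.158 to 0.187 CPM. T-cell identity was visible in each library: 41 genes of T-cell receptor signalling summed to 6826 and 6007 CPM in the untreated libraries and 3256 and 3232 CPM in the treated ones. The 13 B-cell markers summed to 672 and 566 CPM untreated and 199 and 206 CPM treated, most of it IGLL1, while PAX5 stayed at or below 0.176 CPM. The sum does not speak for each marker: of 7 tested in the fit given below, 4 fell and 2 rose (median log2 fold change -0.93).

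At almost every gene that differed strongly, the level in untreated replicate 2 was shifted from untreated replicate 1 towards the treated level. MPO, the granulocyte peroxidase, had 0.106 CPM in untreated replicate 1, 17.03 CPM in untreated replicate 2 and 64.97 and 66.5 CPM with GNE987, and the monocyte receptor CD14 had 0.158, 4.93, 21.4 and 22.8 CPM. The sums of 16 myeloid markers were 159 and 189 CPM untreated and 265 and 263 CPM treated; ELANE, CD68 and CD163 stayed at or below 0.294 CPM in all 4 libraries. Of 203 genes with at most 0.5 CPM in untreated replicate 1 and at least 5 CPM in both treated libraries, 203 had more than 0.5 CPM in untreated replicate 2. Their level there was a median of 24.0% of the way from untreated replicate 1 to the treated mean (quartiles 20.6% and 27.0%). Of 4879 genes whose treated mean was at most 0.5 of untreated replicate 1, 4804 had untreated replicate 2 in between, at a median of 26.05% of the way. For the 84 members, which are among these, the median was 29.3% of the way (quartiles 23.0% and 36.9%). For 1978 genes whose untreated replicate 1 was at most 0.5 of the treated mean it was 24.6%. These sets were chosen in part by their values in untreated replicate 1, and such a choice can itself place untreated replicate 2 nearer to the treated level. The share of this and the origin of the position were not tested. Values of each library are therefore given separately. The members' median log2 fold change in the fit was -4.39 with untreated replicate 2 and -4.56 without it. Single members went either way: TOMM40L had -7.02 with it and -7.15 without it, and S1PR4 had -3.67 and -3.62. This look at 1 library was added after the data were seen.

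BET proteins are readers of acetylated histones that help RNA polymerase II pass from initiation into elongation. GNE987 is a degrader: one end binds BET proteins and the other recruits the ubiquitin ligase VHL, which marks them for the proteasome. Genes under large clusters of enhancers, which in leukaemia cells include lineage and growth genes, are known to be sensitive to loss of BET function. The protein targets were not measured here, so no transcript in the table shows the degradation itself.

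The members shared a low level before treatment. Their median was 7.52 CPM in untreated replicate 1 (lowest 5.02, highest 41.7) and 5.31 CPM in untreated replicate 2 (2.77 to 32.0). In the treated libraries the medians were 0.235 and 0.249 CPM, and no member had more than 8 counts in either. On the deposited scale per transcript length the median was 1.59 FPKM in untreated replicate 1, against 6.36 FPKM for all genes with at least 5 CPM there. Summed over the 84 genes, 13495 and 9366 counts in the untreated libraries stood against 346 and 329 in the treated ones. In bulk RNA, fewer cells of a type and less RNA per cell cannot be told apart. The plot of all members by library shows the untreated values in a narrow band and the treated values in steps of 1 count.

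**Figure D1:**
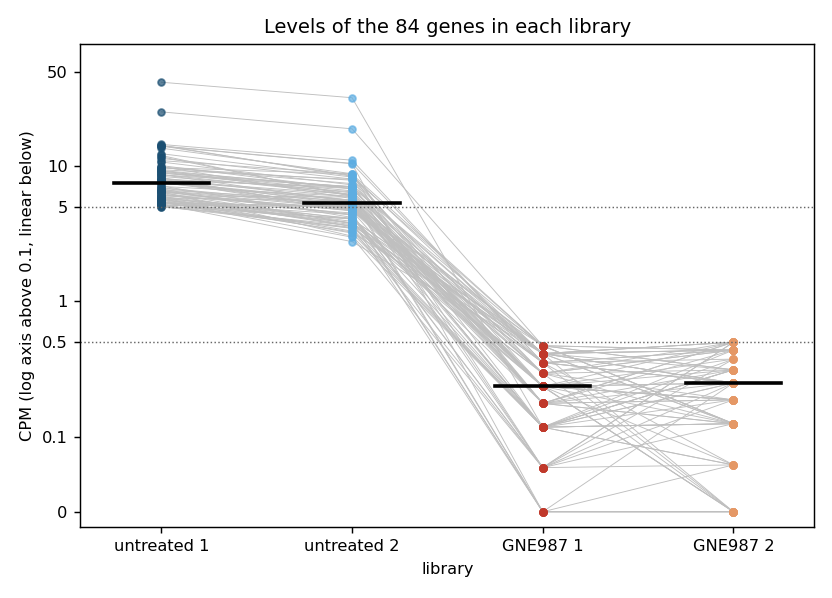
CPM of the 84 genes in each of the 4 libraries, with 1 point and line per gene, a black bar at the median and dotted lines at the thresholds of 5 and 0.5 CPM; the axis is logarithmic above 0.1 and linear below. Medians are 7.52 and 5.31 CPM in the untreated libraries and 0.235 and 0.249 CPM in the treated ones, where points fall on steps of single counts.

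Treated counts were few enough for counting error to set the precision. Over both treated libraries 4 members had no count, 5 had 1 to 3, 43 had 4 to 9 and 32 had 10 to 15. The treated replicates did not order the members one way: 35 were higher in the first and 45 in the second. In the fit across all genes (edgeR quasi-likelihood test, treated against untreated), 37.2% of 15910 tested genes had an adjusted p below 0.05 and were lower, and 34.4% were higher. All 84 members passed the filter on low counts, through the untreated libraries, and were among the lower genes; the rule fixes this and nothing is read from it. Their median log2 fold change was -4.39, beside -0.03 for all genes tested. Scaling by library size alone in place of TMM gave 4103 higher and 7164 lower genes in place of 5467 and 5920, a shift of the median of all genes by -0.37 on the log2 scale. Without untreated replicate 2, 6525 genes were lower and 6816 higher.

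Surface receptors of lymphocytes were among the members. CXCR3, the receptor by which activated T cells follow interferon-induced chemokines, lies at chrX:71615916-71618517 (GRCh38) and had 14.05 and 10.4 CPM in the untreated libraries. It had no count in either treated library. Measured against a floor of 3 counts over the treated pair (0.0907 CPM), untreated replicate 2 was at least 115-fold higher. CD2 (chr1:116754385-116769228), the adhesion receptor of T and NK cells, had 9.29 and 6.83 CPM untreated and 0.235 and 0.499 CPM treated. S1PR4, a lymphocyte receptor for sphingosine 1-phosphate, had 5.12 and 5.04 CPM untreated and 0.294 and 0.312 CPM treated.

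The promoter windows of CXCR3 and CD2 are shown because these members encode lymphocyte receptors, 1 with no treated count. They come from RefSeq on GRCh38.p14 and run from 250 bases before to 50 bases after the annotated start, on the gene's strand. CXCR3 lies on the minus strand (chrX:71618462-71618761) and CD2 on the plus strand (chr1:116754180-116754479). Capitals mark matches on either strand to the motifs counted at the end. In CXCR3 they are an E-box with the letters CAGCTG and the letters TGNGGT, where N is any base. TGNGGT is a looser form of the core read by RUNX factors, so a match need not be a RUNX site. In CD2 they are the E-box CACGTG and, on the other strand, the E-box CAGATG. No binding was measured.
CXCR3: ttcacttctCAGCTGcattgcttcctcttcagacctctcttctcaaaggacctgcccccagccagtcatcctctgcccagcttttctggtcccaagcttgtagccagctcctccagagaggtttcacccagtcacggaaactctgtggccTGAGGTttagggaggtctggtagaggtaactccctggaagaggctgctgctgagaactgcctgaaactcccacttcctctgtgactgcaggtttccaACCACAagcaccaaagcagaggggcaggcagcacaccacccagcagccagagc
CD2: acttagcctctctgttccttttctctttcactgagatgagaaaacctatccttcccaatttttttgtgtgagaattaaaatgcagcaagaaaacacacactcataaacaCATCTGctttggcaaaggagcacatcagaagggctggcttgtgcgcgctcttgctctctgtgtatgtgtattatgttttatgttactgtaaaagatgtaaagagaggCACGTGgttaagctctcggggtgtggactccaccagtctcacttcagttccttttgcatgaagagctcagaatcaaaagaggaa

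Other G protein-coupled receptors in the set are better known from other tissues. ADORA1, the adenosine A1 receptor, had 9.40 and 7.97 CPM untreated and 0.176 and 0.436 CPM treated. ACKR3, an atypical receptor that scavenges CXCL12, had 8.40 and 6.45 CPM against 0.176 and 0.499 CPM. CXCR4, the signalling receptor for the same chemokine, is no member: it had 266 and 243 CPM untreated and 127 and 123 CPM treated. TSHR, the thyrotropin receptor, and the orphan receptor GPR27 make up the 6 receptors of this class, which had 4.72 to 10.4 CPM in untreated replicate 2. Among 19 tested chemokine and homing receptors 17 fell and 2 rose (median log2 fold change -2.40), and 2 of the 14 with at least 5 CPM in untreated replicate 1 belong to the set. The highest of the other receptors, P2RY8, kept 37.7 and 37.5 CPM with GNE987 from 504 and 387 CPM without, and SELPLG, the selectin ligand, kept 19.1 and 17.9 CPM from 223 and 171 CPM. P2RY8 fell by 3.19 ± 0.16 (SE) on the log2 scale (edgeR adjusted p = 0.000295). SELPLG fell by 3.03 ± 0.15 (adjusted p = 0.000292).

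Few T-cell genes were in the set, but the rule took only 0.799% of all genes with at least 5 CPM in untreated replicate 1. The absence of members from lists this short is therefore no result about these genes. Among all genes tested 37.2% fell and 34.4% rose. None of the 37 genes of T-cell receptor signalling with at least 5 CPM in untreated replicate 1 was a member, although 30 of 39 tested ones fell and 4 rose (median -2.04). Of 13 T-cell surface genes at that level CD2 was the 1 member; 9 of 19 tested ones fell and 5 rose (median -0.33). PTPRC (CD45) had 172 and 134 CPM untreated and 37.2 and 38.2 CPM treated, and SPN (CD43) 245 and 217 against 113 and 108 CPM. CD7 had 162 and 174 CPM untreated and 180 and 199 CPM treated, with a rise of 0.55 ± 0.14 (adjusted p = 0.0185). Of 14 immature thymocyte genes 12 fell and 1 rose, and of 7 tested SLAM receptors and adaptors 7 fell, with no member from either list. Among 29 tested genes of lymphocyte cytoskeleton and signalling 19 fell and 2 rose (median -1.10), again with no member. Of 16 tested cytokine receptors 9 fell and 5 rose, and of 13 cytotoxic and NK-cell genes 2 fell and 6 rose; neither list held a member. Without untreated replicate 2 none of the counts of these lists moved by more than 2 genes in either direction.

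Transcription regulators in the set were HOXA10, HOXA5, LMO1 and SMAD1, of which HOXA10 and LMO1 are on the list of T-ALL factors. HOXA10 (chr7:27170591-27180261), a homeobox factor of early blood progenitors that is high in some T-ALL subtypes, had 11.4 and 8.03 CPM untreated and 0.294 and 0.187 CPM treated. HOXA5, from the same cluster, had 5.39 and 4.39 CPM untreated and no count in either treated library, so that untreated replicate 2 was at least 48.4-fold higher. LMO1 (chr11:8224304-8268716), a LIM-domain partner of TAL1 and a T-ALL oncogene, had 6.13 and 4.83 CPM untreated and 0.235 and 0.187 CPM treated. SMAD1, which carries BMP signals to the nucleus, had 9.77 and 7.43 CPM untreated and 1 and 2 counts treated (0.0587 and 0.125 CPM). Untreated replicate 2 was 81.9-fold above the treated pair for SMAD1, with an exact 95% counting interval of 27.4 to 402.

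Of 27 tested T-ALL transcription factors 16 fell and 6 rose (median -1.02), and 2 of 24 with at least 5 CPM in untreated replicate 1, HOXA10 and LMO1, were members. The non-members with the highest untreated level were ETS1, MYB and TCF3. ETS1 had 430 and 355 CPM untreated and 156 and 141 CPM treated, MYB 429 and 325 against 37.5 and 33.6 CPM, and TCF3 406 and 366 against 215 and 219 CPM. They were picked by their untreated level, so their higher treated CPM does not by itself set them apart from the members. LMO4, a relative of LMO1, had 53.8 and 68.3 CPM untreated and 139 and 115 CPM treated, a rise of 1.42 ± 0.19 (adjusted p = 0.00213). Within the HOXA cluster HOXA7 missed the treated threshold, with 5.12 and 4.93 CPM untreated and 0.235 and 0.561 CPM treated. Relatives of members were picked after the members were known.

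Chromatin and RNA-modifying genes followed. TET1, which oxidises 5-methylcytosine, had 5.70 and 3.69 CPM untreated and 0.352 and 0.374 CPM treated. Its relative TET3 had 24.0 and 24.7 CPM untreated and 23.8 and 23.9 CPM treated (log2 fold change 0.34, adjusted p = 0.0557), and TET2 had 7.66 and 5.26 against 1.70 and 1.25 CPM. Without untreated replicate 2 TET3 rose by 0.42 (adjusted p = 0.00567). Differences between these relatives were not tested. TRDMT1, a methyltransferase of tRNA, had 8.61 and 7.05 CPM untreated and 0.470 and 0.436 CPM treated. THUMPD2, another RNA methyltransferase, had 8.92 and 6.34 CPM untreated and 1 and 3 counts treated. DDX19B, a helicase of mRNA export, had 7.97 and 4.77 CPM untreated and 0.411 and 0.499 CPM treated, while its close copy DDX19A had 45.6 and 37.1 against 20.8 and 21.3 CPM. Reads of this pair can be split by the counting, so the level of DDX19B is uncertain.

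Zinc finger and SCAN-domain genes, a family of DNA-binding repressors, gave 7 members. ZNF343 had 14.1 and 10.5 CPM untreated and 0.352 and 0.249 CPM treated. ZNF583 had 9.77 and 8.73 CPM against 0.470 and 0.125 CPM, and ZSCAN26 had 9.72 and 7.86 CPM against 0.117 and 0.249 CPM. The others, ZNF341, ZSCAN18, ZNF605 and ZNF365, had 3.63 to 5.59 CPM in untreated replicate 2. Within 100 kb of ZSCAN26, ZKSCAN3 had 6.34 and 4.39 CPM untreated and 2.17 and 1.99 CPM treated and fell by 0.98 on the log2 scale (adjusted p = 0.031). The related genes ZKSCAN4 and PGBD1 did not pass the test (adjusted p = 0.0594 and 0.198); without untreated replicate 2 ZKSCAN4 rose by 0.77 (adjusted p = 0.000206).

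The member with the highest untreated level encodes a mitochondrial protein. TOMM40L (chr1:161225939-161230744), a homologue of the pore of the outer-membrane import complex, had 41.7 and 32.0 CPM untreated and 0.117 and 0.312 CPM treated, or 2 and 5 counts. Untreated replicate 2 was 151-fold above the treated pair (exact 95% counting interval 73.0 to 378). TOMM40, the main pore subunit, had 421 and 348 CPM untreated and 77.4 and 71.2 CPM treated. Of 29 tested import genes 18 fell and 7 rose (median -1.40), and TOMM40L was the 1 member among 27 with at least 5 CPM in untreated replicate 1. Other highly expressed import genes were HSPA9, at 498 and 457 CPM untreated and 401 and 388 CPM treated (adjusted p = 0.484), and TOMM22, at 259 and 193 against 16.3 and 15.96 CPM. The mitochondrial ribosome, with 63 genes lower and 6 higher among 77 tested (median -1.88), gave no member. The rule took 0.799% of all genes with at least 5 CPM in untreated replicate 1, so this absence is no result about that list.

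The promoter of TOMM40L (GRCh38.p14, chr1:161225810-161226109, plus strand) is shown as that of the member with the highest untreated level. None of the motifs searched was found in this window, so it has no capitals.
TOMM40L: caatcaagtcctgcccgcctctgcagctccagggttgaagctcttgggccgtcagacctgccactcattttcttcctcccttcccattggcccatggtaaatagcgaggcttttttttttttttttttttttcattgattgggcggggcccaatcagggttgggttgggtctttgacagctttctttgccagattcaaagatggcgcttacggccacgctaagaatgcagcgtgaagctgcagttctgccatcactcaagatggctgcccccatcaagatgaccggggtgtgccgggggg

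Enzymes of the set covered unrelated pathways. GPD2, the mitochondrial glycerol 3-phosphate dehydrogenase, had 10.7 and 7.27 CPM untreated and 0.411 and 0.499 CPM treated. CYP26A1, which degrades retinoic acid, had 9.03 and 6.56 CPM against 0.235 and 0.187 CPM. GAD1, the enzyme that makes the transmitter GABA, had 5.28 and 5.10 CPM against 0.470 and 0.125 CPM. GALNT14, LACTB2 and the cochaperone DNAJC12 had 3.04 to 4.07 CPM in untreated replicate 2. The 7 genes of this class ranged from 0 to 0.499 CPM with GNE987.

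Secreted and matrix proteins, whose main sources are other tissues, were also present. TSKU, a small leucine-rich proteoglycan, had 14.3 and 8.41 CPM untreated and 0.235 and 0.187 CPM treated. C9, the complement component that completes the membrane attack pore, had 9.13 and 6.995 CPM against 0.176 and 0.312 CPM. It overlaps the member DAB2 on the same strand, and reads there can be counted for either gene, so the level of C9 is uncertain. EFEMP1, a fibulin of the matrix, and APLN, the peptide apelin, had 6.18 and 5.59 CPM in untreated replicate 2. LGALSL, a galectin-like protein, had 14.5 and 11.1 CPM untreated and 0.352 and 0 CPM treated. GBP1, an interferon-induced GTPase, had 7.87 and 6.995 CPM untreated and 0.176 and 0.125 CPM treated. The second interferon-inducible member, SAMD9L, had 5.23 and 4.07 CPM against 0.411 and 0.125 CPM, and its neighbour SAMD9 kept 2.996 and 2.56 CPM from 15.7 and 9.38 CPM.

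Adaptors, trafficking and cytoskeletal proteins made up 16 members. CABLES1, which links cyclin-dependent kinases to tyrosine kinases, had 10.1 and 6.78 CPM untreated and 0.352 and 0.436 CPM treated. DAB2, a clathrin adaptor, had 8.66 and 6.18 CPM against 0.235 and 0.187 CPM. NEFL, the light neurofilament chain, had 5.12 and 3.52 CPM against 0.294 and 0.436 CPM and was the 1 member of 12 neural markers. Of 9 tested neural markers 4 rose and 1 fell; ENO2 had 175 and 161 CPM untreated and 124 and 121 CPM treated (adjusted p = 0.515), and SYP had 6.44 and 9.33 CPM against 18.3 and 19.3 CPM. The third of these, MAP2, had 1.37 and 1.14 CPM against 1.23 and 1.31 CPM (adjusted p = 0.377). CFL2, the muscle cofilin, had 5.44 and 3.80 CPM untreated and 0.470 and 0.312 CPM treated. Its relative CFL1, the general cofilin, had 1224 and 1570 CPM untreated and 2289 and 2543 CPM treated, a rise of 1.16 ± 0.20 (adjusted p = 0.00492).

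Members not described so far included PMP22, LKAAEAR1 and LRRC18. PMP22, a myelin membrane protein, had 9.93 and 5.75 CPM untreated and no count in either treated library. Untreated replicate 2 was at least 63.4-fold higher. LKAAEAR1, a gene of unclear role, had 14.1 and 8.51 CPM untreated and 0.411 and 0.436 CPM treated. LRRC18, a leucine-rich repeat protein, had 11.99 and 5.96 CPM untreated and 0 and 1 count treated, a ratio of 197 for untreated replicate 2 with an exact 95% counting interval of 34.7 to 7860. PMP22, LRRC18 and the genes with no treated count were singled out after their values were seen.

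**Figure D2:**
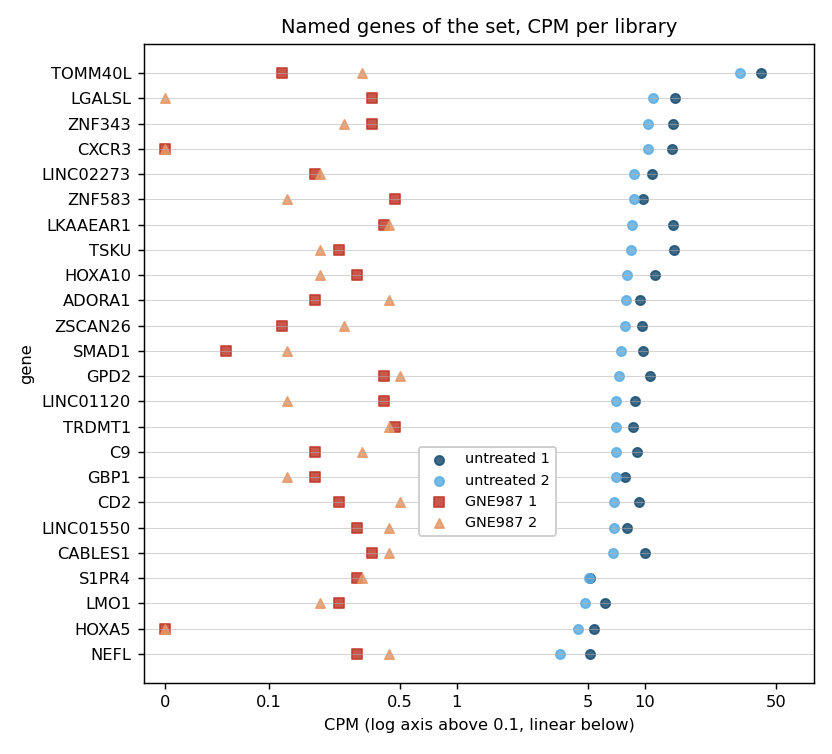
CPM of 24 named members in each library (circles untreated, squares and triangles GNE987); the axis is logarithmic above 0.1 and linear below. The treated points lie at or below 0.5 CPM, as the rule sets, and CXCR3 and HOXA5 are at 0 in both treated libraries.

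Of the 84 members 67 were protein coding, 8 antisense transcripts, 7 lincRNAs and 2 pseudogenes. Among genes with at least 5 CPM in untreated replicate 1 the rule took 0.671% of 9979 coding genes, 8.08% of 99 antisense genes and 8.05% of 87 lincRNAs. The same shares among genes with 5 to 20 CPM were 2.35% of 2812 coding genes, 8.43% of 83 antisense genes and 9.72% of 72 lincRNAs. A treated mean under 5% of untreated replicate 1 was found in 2.39%, 9.09% and 9.20% of the 3 classes. These shares use the contrast that chose the members and are a description.

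AC010976.2, an antisense transcript in MYO7B, was the highest noncoding member, with 25.2 and 18.9 CPM untreated and 0.470 and 0.312 CPM treated. MYO7B, the myosin gene on the other strand, had 1163 and 950 CPM untreated and 180 and 193 CPM treated. The strand setting of the counting is not known here, and without strand the reads of such pairs cannot be told apart. AL161644.1 lies inside SSBP3 on the opposite strand and had 13.6 and 8.78 CPM untreated and 1 count in each treated library. SSBP3 itself had 104 and 129 CPM untreated and 193 and 173 CPM treated, so the pair went in opposite directions. AC116351.1 had 12.4 and 8.30 CPM untreated and 0.470 and 0.125 CPM treated. AL034397.3 had 5.86 and 3.90 CPM untreated and no count with GNE987.

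LINC02273, the highest lincRNA of the set in untreated replicate 2, had 11.0 and 8.73 CPM untreated and 0.176 and 0.187 CPM treated. LINC01366 was higher in untreated replicate 1, with 11.7 and 6.07 CPM untreated and 0.176 and 0.249 CPM treated. LINC01120 had 8.87 and 7.05 CPM against 0.411 and 0.125 CPM, and LINC01550 had 8.03 and 6.83 CPM against 0.294 and 0.436 CPM. SBF2-AS1 and its host SBF2 were low together: 6.02 and 5.91 CPM untreated against 0.117 and 0.249 CPM treated for the antisense transcript, and 11.1 and 7.65 against 0.587 and 0.499 CPM for SBF2. USP2-AS1 had 5.49 and 2.98 CPM untreated and 0.0587 and 0.499 CPM treated, while THY1, which it overlaps, had 61.9 and 64.2 CPM against 58.3 and 66.1 CPM (log2 fold change 0.35, adjusted p = 0.0597). Without untreated replicate 2 THY1 rose by 0.44. USP2, which starts 0.052 kb from USP2-AS1, had 5.60 and 5.10 CPM untreated and 1.23 and 2.12 CPM treated and fell by 1.29 on the log2 scale (adjusted p = 0.0237).

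Untreated replicate 2, which lay nearer to the treated libraries than untreated replicate 1 did, still held all 84 members above both of them. The same was true of 68.3% of genes with at least 5 CPM in untreated replicate 1. The smallest ratio of untreated replicate 2 to the higher treated library was 5.98, and a ratio of at least 5 was found in 12.8% of those genes. The treated side of this ratio was fixed by the rule. The median of untreated replicate 2 over the treated pair was 23.0-fold with members at 0 placed at their bound, and the lowest was 8.31-fold, for MNS1, a cilium gene, with an exact 95% counting interval of 4.28 to 17.7.

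Untreated replicate 2 was also below untreated replicate 1 for all 84 members, at a median of 71.2% of it (47.1% for GALNT14 to 98.5% for S1PR4). Among all genes with at least 5 CPM in untreated replicate 1, 69.8% were lower in untreated replicate 2 and the median was 89.3%. For 172 genes that missed the set with 0.5 to 1 CPM in the higher treated library the median was 76.0%, and 168 of them were lower. The position of this library between the groups, given above, goes with these percentages, and the rule asked for a high value in untreated replicate 1. Their parts in the gap were not tested. At least 5 CPM in untreated replicate 2 was reached by 48 of 84 members, and the same 48 genes make up the set when that library replaces untreated replicate 1.

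**Figure D3:**
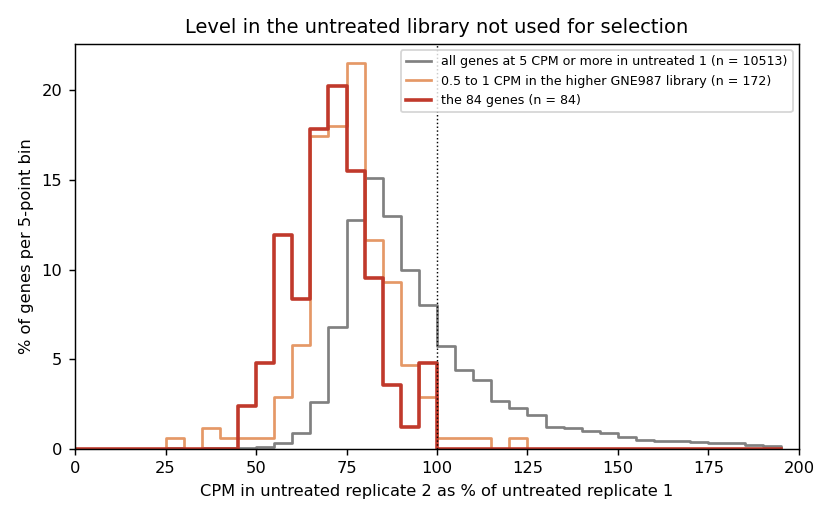
Distribution of the level in untreated replicate 2 as a percent of untreated replicate 1, as % of genes per 5-point bin, for the 84 members, 172 genes just outside the treated threshold and all 10513 genes with at least 5 CPM in untreated replicate 1. Members centre on 71.2%, the genes just outside on 76.0% and all genes on 89.3%.

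Near-zero levels were tied to the starting level by the rule. Of the members 69 had 5 to 10 CPM in untreated replicate 1, 13 had 10 to 20 and 2 had 20 to 50, and none had more. A treated mean under 5% of untreated replicate 1 was seen in 259 genes, 66 of them members. By starting level that share was 3.997% of 1351 genes at 5 to 10 CPM, 2.23% of 1842 at 10 to 20, 2.72% of 3127 at 20 to 50, 2.18% of 2066 at 50 to 100 and 1.60% of 2127 above 100 CPM. Genes that kept as small a fraction were found at every level. Those that started above 50 CPM held no member, while TOMM40L and AC010976.2 were members from 41.7 and 25.2 CPM. The members kept a median of 3.04% and at most 8.98% of untreated replicate 1, against a median of 54.9% for all genes at 5 CPM or more.

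Just inside the untreated threshold were ADAM33 and ZNF365, both at 5.02 CPM in untreated replicate 1, and ZSCAN18 at 5.07 CPM. In the order of the libraries, untreated then treated, ADAM33 had 5.02, 3.47, 0.117 and 0.125 CPM, ZNF365 had 5.02, 3.63, 0.117 and 0.0623 CPM and ZSCAN18 had 5.07, 4.07, 0.411 and 0.499 CPM. Just outside it were AC040162.1 (4.96, 3.25, 0.117 and 0.436 CPM), ZNF792 (4.96, 2.55, 0.235 and 0.249 CPM) and KCNH4 (4.91, 3.20, 0.235 and 0.499 CPM). At the treated threshold GPD2, CD2 and ACKR3 were inside with 0.499 CPM in the higher library. Outside it, at 0.529 CPM, were RGPD2, CCNJL and PIGBOS1, with 13.3, 12.4 and 8.77 CPM in untreated replicate 1 and 3.52, 8.89 and 7.86 CPM in untreated replicate 2. Their other treated values were 0.187, 0.249 and 0.374 CPM. In the first treated library 8 counts were inside and 9 outside, so 1 count decided membership at this edge.

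The members were spread over 21 chromosomes, with 11 on chromosome 2 as the highest number. Pairs of members overlapped or started within 100 kb of each other at 3 places. HOXA10 and HOXA5 start 36.6 kb apart on chromosome 7, with the start of the non-member HOXA7 between them. C9 and DAB2 overlap on the same strand of chromosome 5 and start 37.4 kb apart, and LRRC18 lies inside WDFY4 on the opposite strand of chromosome 10. WDFY4, a gene of antigen cross-presentation, had 6.28 and 3.58 CPM untreated and 0.294 and 0.499 CPM treated. Reads in such overlaps can be counted for either gene. In all 35 members overlapped another row of the table, and 12 overlapped one with at least 5 CPM in untreated replicate 1.

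Genes next to the members were mixed. Non-members with at least 5 CPM in untreated replicate 1 that start within 100 kb of a member numbered 86, beside 50 of the 84 members. Of these 49 fell, 15 rose and 22 did not pass the test, or 57.0% lower and 17.4% higher. Among all 10513 genes at that level 48.9% were lower and 28.8% higher. The neighbours' median log2 fold change was -0.89, against -0.40 for all genes at that level, and the lowest was -4.72, that of WDR43 beside TOGARAM2. Around TOMM40L, B4GALT3 had 101 and 72.3 CPM untreated and 3.88 and 2.74 CPM treated. SDHC, 88.3 kb away, had 141 and 135 CPM untreated and 114 and 118 CPM treated and did not pass the test (adjusted p = 0.361). Beside LGALSL, AFTPH had 32.8 and 40.9 CPM untreated and 60.1 and 55.4 CPM treated, a rise of 1.01 on the log2 scale (adjusted p = 0.0041). The 15 rising neighbours lay beside 13 members. Without untreated replicate 2, 52 of the 86 neighbours were lower and 19 higher. Neighbours were picked for naming after their values were seen.

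**Figure D4:**
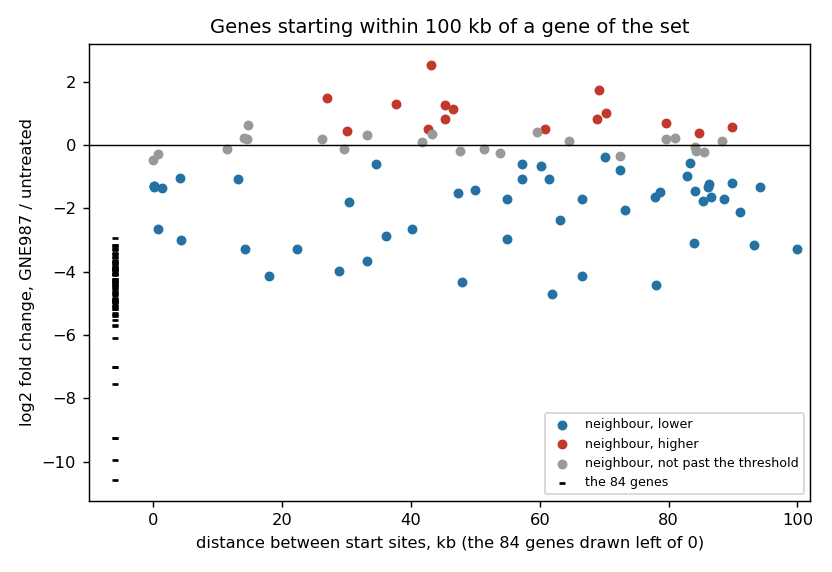
Log2 fold change (GNE987 over untreated) of genes with at least 5 CPM in untreated replicate 1 against the distance between their start and that of a member, in kb; the 84 members are drawn as black dashes left of 0. Neighbours range from -4.72 to 2.53 and members from -10.58 to -2.94.

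Promoter windows of RefSeq (GRCh38.p14, 300 bases each) were matched to 55 of 67 coding members, or 82.1%, and to 8298 coding genes with at least 5 CPM in untreated replicate 1. The members' windows held a median of 19 CG dinucleotides, against 27 for those genes and 26 for the 2293 with 5 to 20 CPM. They ranged from 0 (LRRC18, PTPN3 and SAMD9L) to 48 (DENND5B), and CXCR3 had 1 and CD2 had 4. Each window follows 1 RefSeq start, which for some members lies far from the gene start used for positions here. The PTPN3 window is chr9:109417734-109418033, while the gene starts at 109498313. The LRRC18 window is chr10:48939791-48940090, while the gene starts at 48914232. Median GC content was 60.3% against 65.7%. CCGGAA, the core letters read by ETS factors, was found on either strand in 7 members (12.7%), against 32.8% of the expressed coding genes, 28.9% of those with 5 to 20 CPM and 17.6% of all 27305 windows.

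Of the E-box letters, CAGCTG stood in 14 members (25.5%), against 16.4% of the expressed coding genes, 18.8% of those with 5 to 20 CPM and 17.7% of all windows. CAGATG stood in 9 (16.4%), against 8.62%, 9.77% and 14.8% in the same order. CACGTG, the letters read by MYC and MAX, stood in 7 (12.7%), against 10.9%, 10.3% and 7.43%, a share near that of genes at the same level. TGNGGT stood in 23 (41.8%), against 39.6%, 40.95% and 43.2%. AGATAA, read by GATA factors, stood in 2 (3.64%), against 4.37%, 4.75% and 10.5%, and TATAAA in 4 (7.27%), against 4.56%, 4.75% and 11.95%. Motifs were searched on both strands and may overlap each other. These shares describe letters in 1 window per gene and were not tested.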

How the data were processed

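RNA of Jurkat cells was sequenced in 2 libraries with GNE987 and 2 without, the groups being those of the labels, per the labels from polyadenylated RNA and an Illumina TruSeq library kit. Alignment used HISAT2 2.2.0 and hg38, per the submitters' processing notes. Counter, annotation and strand setting: not given in the sources used here. Raw counts per gene, a normalized signal and FPKM were deposited by the authors. The deposited signal is the raw count after division by a library-wide factor (0.793 to 1.27), and the deposited FPKM values served to compare levels between genes.

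CPM is the count over the column total. All 26733 gene identifiers matched GENCODE release 29 (GRCh38), which gave positions. Genes passing filterByExpr (minimum count 10, minimum total 15) were scaled by TMM; edgeR 4.0.16 (R 4.3.3) gave quasi-likelihood p-values, adjusted by Benjamini-Hochberg over 15910 genes at 0.05, with the SE as the log2 fold change over the root of F. The script was tested on simulated data. No label says that the replicates were separate cultures, and the spread behind the p-values may therefore be technical. Counting intervals are exact binomial at 95% and cover counting error alone, since reads carry no molecular identifiers.

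The members, lists and tests were chosen with earlier results of these data known. Named with every value were the 20 members with an ordinary symbol and the highest CPM in untreated replicate 2, members on 20 gene lists, genes at the thresholds, the 5 highest noncoding members, adjacent members (overlapping, or starting within 100 kb), and the 3 highest other genes of lists that hold a member; for lists without a member these others are not named. The classes of coding members were made after the members were known. Alternatives were RLE factors, library size alone, no filter, DESeq2 1.42.0, a replicate block, each library left out and other thresholds.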

Additional observations from a re-analysis of the deposited data

How the results depend on the processing

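The direction and call of the 84 members are fixed by the rule, so that their staying lower under each setting is no sign of stability. Their median log2 fold change of -4.39 became -4.77 with library size alone and ranged from -4.64 to -4.21 with 1 library left out. With the replicate number as a block it was -4.41, with 9801 genes called in all in place of 11387. The deviations of same-numbered libraries had a correlation of -0.006 across genes. With 2 libraries per group, and untreated replicate 2 shifted towards the treated level, this value cannot decide whether the numbers mark pairs. With 1 library left out the count of called genes ranged from 6306 (without GNE987 replicate 1) to 13341 (without untreated replicate 2), and was 6370 without GNE987 replicate 2; such a fit takes the spread of the lone library from the other group. The causes were not tested.

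The number of members depends on the thresholds. It was 43 with TMM-scaled CPM, 34 at 0.25 CPM treated, 256 at 1 CPM treated, 15 at 10 CPM untreated and 48 with 5 CPM in both untreated libraries. Dropping a treated library from the rule gave 130 (without replicate 1) and 128 (without replicate 2). With untreated replicate 2 in place of replicate 1, a setting chosen after seeing the data, it was 48. The median level in untreated replicate 2 as a percent of replicate 1 was 76.3% with TMM and 74.2% with DESeq2 size factors, against 71.2%. Depth limits the treated levels, which rest on 0 to 8 counts per library.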
